A study of Homo sapiens with 8 samples.

Results

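The genes described here encode matricellular proteins and number 10: TNC, TGFBI, POSTN, SMOC1, SMOC2, SPARC, SPARCL1, THBS1, CCN1 and CCN2. They were taken from the count table by gene name, and all 10 were found among its 61209 names and passed the filter on low counts that 22554 genes passed. Several of them had been selected on the size of their measured difference between FGF8+10 and Mock cells. Their FGF8+10 against Mock values are therefore given as a description, with no test, and only the comparisons between sorted populations are tested for them.

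Matricellular proteins are secreted into the extracellular matrix, where they act less as scaffold than as ligands that change how cells attach, spread and receive growth factors. Most of them bind integrins, and several bind growth factors or heparan sulfate. Embryonic mesenchyme uses them in turn: tenascin-C is known from condensing mesenchyme and developing tendon, periostin from fibrous tissue and heart valves, and the SMOC proteins as extracellular modulators of BMP signalling, with SMOC1 required for normal limb and eye development.

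RNA was sequenced from a derivative of the established human embryonic stem cell line H1 with the genotype Msx1-P2A-tdTomato, a red fluorescent reporter that marks cells using MSX1. All 4 groups share the same first steps: a day 0 medium with 50 ng/mL of Activin A, 40 ng/mL of BMP4, 10 ng/mL of FGF2 and 6 µM of CHIR99021 (an inhibitor of the kinase GSK3), then 3 days with 60 ng/mL of BMP4 and 1 µM of CHIR99021, and aggregation at day 4 into pellets of 25000 cells. The FGF8+10 groups then received FGF8 and FGF10 at 500 ng/mL each, and the Mock groups a medium whose composition is not given in the sources used here. At day 8 the Msx1+ cells were sorted into Pdgfra+ (here Pdgfra-positive) and Pdgfra-low cells, which gave FGF8+10 Pdgfra-positive, FGF8+10 Pdgfra-low, Mock Pdgfra-positive and Mock Pdgfra-low groups of 2 libraries each. All come from 1 reporter line. The titles number the libraries as biological replicates, and no source used here says whether each came from its own differentiation. The p-values therefore describe the spread among these libraries and nothing wider.

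Depth was 47698561 to 64390444 counts per library, and the limit set by an absence of reads was put at 6 counts (3 read pairs), which is 0.0883 to 0.134 CPM in 1 library. CPM are counts scaled to library size after scaling by trimmed mean of M-values (TMM). The mesenchymal genes PRRX1 (group means 144 to 273 CPM) and HAND2 (345 to 473 CPM) were present in every group, whereas the limb genes TBX5 (2.74 to 3.71 CPM) and LHX9 (at most 0.0104 CPM) were low or near 0. TBX4, the hindlimb gene, had group means of 33.1 and 14.2 CPM in Pdgfra-positive and Pdgfra-low cells under FGF8+10 and of 88.2 and 86.2 CPM under Mock. Both genes behind the gates were higher with FGF8+10: PDGFRA had group means of 714 and 286 CPM in Pdgfra-positive and Pdgfra-low cells under FGF8+10 against 454 and 192 CPM under Mock, and MSX1 50.3 and 50.7 CPM against 21.7 and 26.2 CPM. Sorting followed treatment, so a gate may hold different cells under each treatment, and in bulk RNA fewer cells of a type and less RNA per cell cannot be told apart.

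The reference sequence just upstream of 6 of the genes is given here, for those whose levels differed most between treatments (TNC, TGFBI, POSTN, SMOC2) or that were higher in Pdgfra-low cells (THBS1, CCN2), so that their values can be read beside their promoter context. Sequences come from RefSeq (GRCh38.p14), whose promoter table held 9 of the 10 genes; the window is the 250 bases before the RefSeq start, and bases that fall in an exon of the counting annotation were left off. The windows are TNC at chr9:115118208-115118407 on the minus strand, TGFBI at chr5:136028738-136028987 on the plus strand, POSTN at chr13:37598845-37599018 on the minus strand, SMOC2 at chr6:168440934-168441150 on the plus strand, THBS1 at chr15:39580829-39581078 on the plus strand and CCN2 at chr6:131951373-131951622 on the minus strand. Capitals mark every match, on either strand, to TATAAA (the TATA box), TGANTCA (the AP-1 site), GGAATG (the TEAD core), CNGGAAGT (an ETS site) or the CArG box bound by SRF, and no printed matches overlap.
TNC: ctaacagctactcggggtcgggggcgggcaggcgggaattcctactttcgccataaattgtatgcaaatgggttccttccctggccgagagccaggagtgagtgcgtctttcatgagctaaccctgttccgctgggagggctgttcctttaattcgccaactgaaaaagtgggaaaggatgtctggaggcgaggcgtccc
TGFBI: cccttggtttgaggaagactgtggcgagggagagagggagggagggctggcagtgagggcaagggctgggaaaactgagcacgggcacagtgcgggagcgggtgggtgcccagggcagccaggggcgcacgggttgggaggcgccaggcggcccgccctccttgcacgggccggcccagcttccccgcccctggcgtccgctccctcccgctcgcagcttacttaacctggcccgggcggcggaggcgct
POSTN: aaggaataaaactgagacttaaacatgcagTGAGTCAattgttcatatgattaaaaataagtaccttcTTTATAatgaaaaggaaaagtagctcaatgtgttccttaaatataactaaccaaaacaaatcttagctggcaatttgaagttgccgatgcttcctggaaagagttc
SMOC2: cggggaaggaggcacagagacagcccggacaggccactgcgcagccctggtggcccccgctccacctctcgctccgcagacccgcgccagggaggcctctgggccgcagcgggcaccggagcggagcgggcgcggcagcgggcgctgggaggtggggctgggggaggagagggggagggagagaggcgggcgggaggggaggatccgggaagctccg
THBS1: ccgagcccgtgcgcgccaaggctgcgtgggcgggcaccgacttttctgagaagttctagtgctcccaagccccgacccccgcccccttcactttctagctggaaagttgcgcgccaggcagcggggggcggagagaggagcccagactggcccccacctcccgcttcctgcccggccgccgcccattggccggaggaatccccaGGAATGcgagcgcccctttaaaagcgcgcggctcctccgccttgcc
CCN2: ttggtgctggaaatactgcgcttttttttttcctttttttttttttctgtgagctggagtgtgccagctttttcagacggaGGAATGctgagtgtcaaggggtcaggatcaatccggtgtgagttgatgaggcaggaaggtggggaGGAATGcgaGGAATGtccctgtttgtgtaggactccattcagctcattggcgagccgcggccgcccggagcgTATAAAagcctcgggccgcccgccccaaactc

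In the full windows, CCN2 held 3 GGAATG matches, at 169, 104 and 95 bases before the start, and a TATAAA at 32 bases. THBS1 held 1 GGAATG match at 46 bases. POSTN held a TGANTCA match at 220 bases and TATAAA matches at 182 and 29 bases, the last within annotated exon sequence. TNC, TGFBI and SMOC2 held no exact match to any of the motifs searched. The part of the TNC window left off as exon sequence holds TATAAG, which differs from TATAAA in its last letter only. For TNC and SMOC2 the stretch just after the RefSeq start was not found in the annotated transcripts searched, so their start is less certain. Of the genes not printed, SPARC held a GGAATG match at 17 bases and SMOC1 a TATAAA match at 31 bases. All 250 bases of the SPARC window lie in annotated exon sequence. The SMOC1 and SPARCL1 windows lie inside the annotated spans of their genes. SPARCL1 held a TATAAA at 160 bases and a CArG box at 179 bases, and CCN1 had no entry. Over all 35116 promoter windows of the same length, 11.9% held GGAATG, 10.7% TATAAA, 6.57% TGANTCA, 7.77% CNGGAAGT and 1.16% the CArG box. A match is a description of letters and was not tested as a binding site.

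TNC and TGFBI were the members that stood far higher in FGF8+10 cells, in both sorted populations. TNC (chromosome 9, 115019575 to 115118207), which encodes tenascin-C, a large glycoprotein of developing and remodelling matrix, had 327 and 332 CPM in FGF8+10 Pdgfra-positive and 340 and 343 CPM in FGF8+10 Pdgfra-low libraries. In Mock cells it had 10.7 and 11.7 CPM in Pdgfra-positive and 4.48 and 5.57 CPM in Pdgfra-low libraries. Every FGF8+10 library lay above every Mock library, and no groups overlapped. The group means were 29.4-fold apart in Pdgfra-positive cells and 68.0-fold apart in Pdgfra-low cells, log2 fold changes of 4.88 and 6.09.

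TGFBI (chromosome 5, 136028988 to 136063818) encodes a secreted protein of the fasciclin family that binds integrins and collagen. It had 899 and 890 CPM in FGF8+10 Pdgfra-positive, 856 and 871 CPM in FGF8+10 Pdgfra-low, 32.1 and 32.4 CPM in Mock Pdgfra-positive and 17.9 and 17.8 CPM in Mock Pdgfra-low libraries. The separation was again by treatment first, with all FGF8+10 libraries at the top. The means were 27.7-fold apart in Pdgfra-positive and 48.4-fold apart in Pdgfra-low cells, log2 fold changes of 4.79 and 5.60.

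POSTN and SMOC2 had the opposite order, with every Mock library above every FGF8+10 library. POSTN (chromosome 13, 37562583 to 37598844) encodes periostin, the closest relative of TGFBI among these genes. It had 1202 and 1204 CPM in Mock Pdgfra-positive and 1779 and 1821 CPM in Mock Pdgfra-low libraries, against 176 and 182 CPM in FGF8+10 Pdgfra-positive and 127 and 122 CPM in FGF8+10 Pdgfra-low libraries. The means were 6.72-fold lower with FGF8+10 in Pdgfra-positive and 14.5-fold lower in Pdgfra-low cells, log2 fold changes of -2.75 and -3.85.

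SMOC2 (chromosome 6, 168441151 to 168673445) encodes a calcium-binding secreted protein related to SPARC. It had 105.9 and 105.1 CPM in Mock Pdgfra-positive and 90.6 and 97.4 CPM in Mock Pdgfra-low libraries. Under FGF8+10 only 17 and 8 counts (0.252 and 0.118 CPM) were left in the Pdgfra-positive and 24 and 12 counts (0.453 and 0.205 CPM) in the Pdgfra-low libraries. SMOC2 thus came close to the limit of detection in FGF8+10 cells, and its log2 fold changes of -9.14 and -8.18 rest on these few counts. Without FGF8+10 Pdgfra-positive replicate 1 the first was -9.77, without FGF8+10 Pdgfra-low replicate 1 the second was -8.83, and without the replicate 2 libraries they were -8.68 and -7.69.

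SMOC1 (chromosome 14, 69854131 to 70032366), the paralog of SMOC2, showed no such loss. It had 76.3 and 74.1 CPM in FGF8+10 Pdgfra-positive, 18.7 and 18.3 CPM in FGF8+10 Pdgfra-low, 63.3 and 59.3 CPM in Mock Pdgfra-positive and 24.6 and 21.6 CPM in Mock Pdgfra-low libraries. The groups did not overlap, and here the sorted population, not the treatment, set the order. The log2 fold change of FGF8+10 over Mock was 0.30 in Pdgfra-positive and -0.32 in Pdgfra-low cells, and the difference between these was not tested.

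SPARC (chromosome 5, 151661096 to 151686975), also called osteonectin, binds collagen and was by far the most abundant member. It had 6880 and 6836 CPM in Mock Pdgfra-positive and 7177 and 7360 CPM in Mock Pdgfra-low libraries, and 4020 and 4045 CPM in FGF8+10 Pdgfra-positive and 3289 and 3331 CPM in FGF8+10 Pdgfra-low libraries. All Mock libraries were higher, by 1.70-fold in Pdgfra-positive and 2.20-fold in Pdgfra-low cells. SPARCL1 (chromosome 4, 87473335 to 87531061), its close relative, was near the limit of detection: the 8 libraries held between 0 and 14 counts, its groups overlapped or lay at the floor, and no fold is given.

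**Figure D1:**
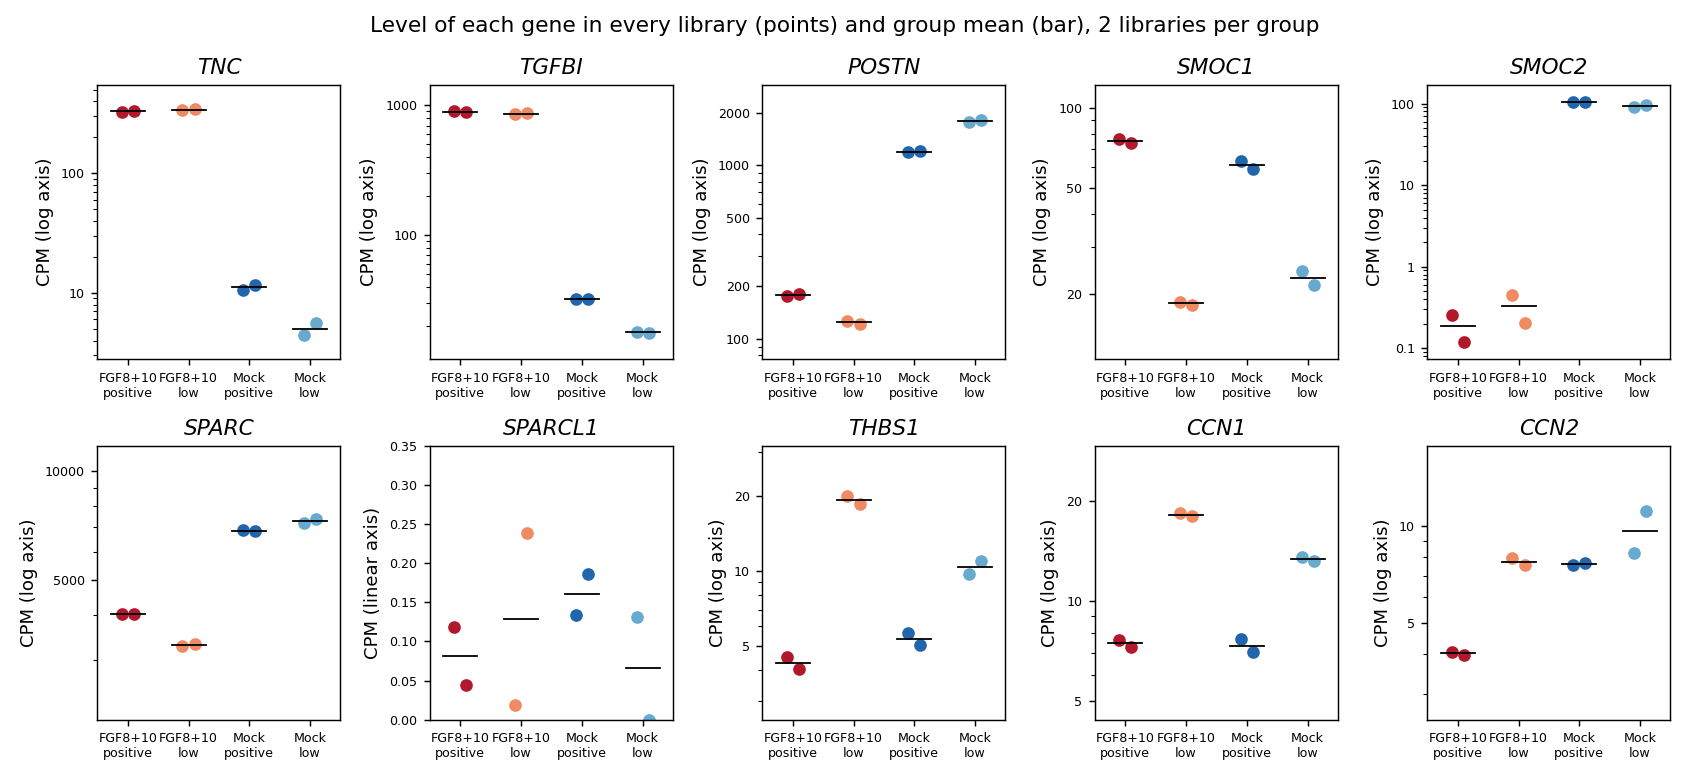
Level of each of the 10 genes in every library, in CPM on a log axis (linear for SPARCL1); points are libraries, bars are means of the 2 libraries of a group. TNC and TGFBI are high in both FGF8+10 groups, POSTN, SMOC2 and SPARC in both Mock groups, and SMOC1, THBS1 and CCN1 separate the sorted populations, SMOC1 with the Pdgfra-positive groups higher and the other two with the Pdgfra-low groups higher.

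THBS1 and the CCN genes, which encode secreted proteins of wound and vessel matrix, were low. THBS1 (chromosome 15, 39581079 to 39599466) encodes thrombospondin-1, an inhibitor of vessel growth and an activator of latent TGF-beta. It had 19.96 and 18.6 CPM in FGF8+10 Pdgfra-low, 9.71 and 11 CPM in Mock Pdgfra-low, 5.65 and 5.04 CPM in Mock Pdgfra-positive and 4.50 and 4.03 CPM in FGF8+10 Pdgfra-positive libraries. None of its groups overlapped. Its log2 fold change with FGF8+10 was -0.32 in Pdgfra-positive and 0.90 in Pdgfra-low cells, and the difference was not tested.

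CCN1 (chromosome 1, 85580761 to 85584589), once called CYR61, had 18.4 and 18.1 CPM in FGF8+10 Pdgfra-low, 13.6 and 13.2 CPM in Mock Pdgfra-low, 7.63 and 7.30 CPM in FGF8+10 Pdgfra-positive and 7.68 and 7.03 CPM in Mock Pdgfra-positive libraries. The Pdgfra-positive groups overlapped, with a log2 fold change of 0.021 that became -0.037 without Mock Pdgfra-positive replicate 2. In Pdgfra-low cells the log2 fold change was 0.45. CCN2 (chromosome 6, 131948176 to 131951372), once called CTGF, had 4.04 and 3.97 CPM in FGF8+10 Pdgfra-positive libraries, below all others. Its other values were 7.96 and 7.57 CPM in FGF8+10 Pdgfra-low, 7.59 and 7.66 CPM in Mock Pdgfra-positive and 8.23 and 11.2 CPM in Mock Pdgfra-low libraries, of which the first 2 groups overlapped. Counting was unstranded, and part of the exon sequence overlaps antisense genes: 11.9% of the CCN2 exon bases lie under LINC01013, 7.58% of THBS1 under FSIP1 and THBS1-AS1, 4.12% of SPARC under CLMAT3 and 1.35% of TNC under DELEC1.

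Of the 10 genes, 2 were at least 2-fold higher and 2 at least 2-fold lower with FGF8+10 in Pdgfra-positive cells, where 10.2% and 13.2% of all tested genes were. In Pdgfra-low cells 2 were at least 2-fold higher and 3 at least 2-fold lower, where 12% and 15.2% of all tested genes were. By the adjusted p alone, 50.9% of all tested genes passed in Pdgfra-positive and 55.7% in Pdgfra-low cells. The genes were picked in these comparisons, so nothing follows from the counts. Scaling by library totals in place of TMM moved the median gene by 0.173 (log2) in Pdgfra-positive and 0.161 in Pdgfra-low cells and changed no member's direction. Markers of other cell types moved with treatment too. The 6 cardiac markers summed to 3.98 to 4.67 CPM and 4.13 to 4.30 CPM in FGF8+10 Pdgfra-positive and Pdgfra-low libraries and to 62.3 to 69.6 CPM and 53.3 to 54.1 CPM in the Mock ones, nearly all of it TNNT2, and the 5 chondrocyte markers summed to 32.5 to 35.4 CPM under FGF8+10 and to 70.5 to 78.5 CPM under Mock. In each population 4 of these 5 fell with FGF8+10, while SOX9, the defining chondrogenic factor gene, rose from group means of 7.35 to 14.8 CPM in Pdgfra-positive and of 14.1 to 19.96 CPM in Pdgfra-low cells. Of 8 endothelial markers, 5 rose and 1 fell with FGF8+10 in Pdgfra-positive cells (sums of 1329 to 1343 CPM under Mock and 2129 to 2139 CPM under FGF8+10), and 8 rose in Pdgfra-low cells (1362 to 1370 CPM and 2573 to 2579 CPM), among them PECAM1 by a log2 fold change of 4.77. KDR made up most of these sums, with group means of 1154 to 1969 CPM. In Pdgfra-positive cells CDH5 and PECAM1 had group means of 0.939 to 2.60 CPM. The part of all these markers in the member values was not tested.

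**Figure D2:**
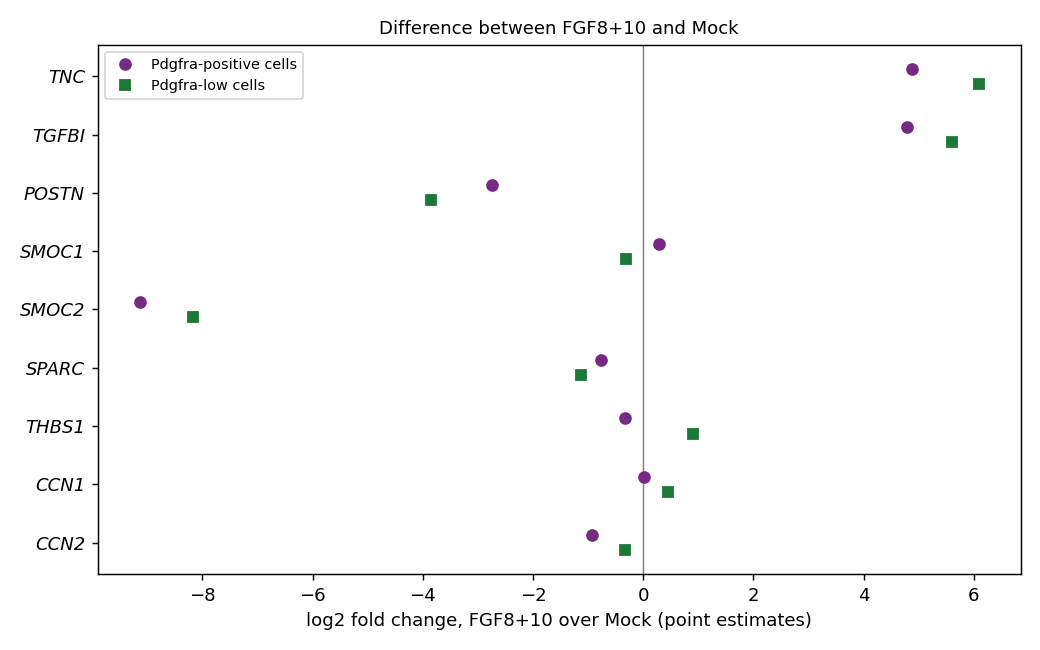
Log2 fold change of FGF8+10 over Mock for 9 genes (SPARCL1, near 0 counts, is left out), as point estimates with no test; circles are Pdgfra-positive and squares Pdgfra-low cells. TNC and TGFBI lie between 4.79 and 6.09, SMOC2 at -9.14 and -8.18, and SMOC1 and THBS1 have a different sign in each population.

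Levels can be set side by side between genes only per length, here as CPM per kilobase of annotated exon. That length joins all annotated exons of a gene and can exceed that of the transcripts present, so values between genes are approximate. On that scale SPARC made up 79.3% to 84.5% of the sum over the 10 genes in every library. Below it the ranking changed with treatment. Under FGF8+10, TGFBI came second, with group means of 115.9 and 111.9 CPM per kilobase, then TNC (34.4 and 35.6) and POSTN (32.8 and 22.8). Under Mock, POSTN came second (220 and 329 CPM per kilobase), then SMOC2 (26.2 and 23.3) and SMOC1 (14.03 and 5.29), while TGFBI had 4.18 and 2.31 and TNC 1.17 and 0.524.

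For the fasciclin family pair, TGFBI exceeded POSTN per length by 3.46 to 5.06 times in the FGF8+10 libraries, whereas POSTN exceeded TGFBI by 52.4 to 144.5 times in the Mock libraries. For the SMOC pair, SMOC1 exceeded SMOC2 by 279.6 and 580.9 times in FGF8+10 Pdgfra-positive and by 38.1 and 82.7 times in FGF8+10 Pdgfra-low libraries. The order turned in Mock cells, where SMOC2 exceeded SMOC1 by 1.81 and 1.92 times in Pdgfra-positive and by 4.00 and 4.88 times in Pdgfra-low libraries. Both ratios contain the FGF8+10 against Mock difference that was used to pick genes, so they are a description. All 10 genes together took 0.498% to 0.584% of counts in FGF8+10 and 0.775% to 0.888% in Mock libraries.

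**Figure D3:**
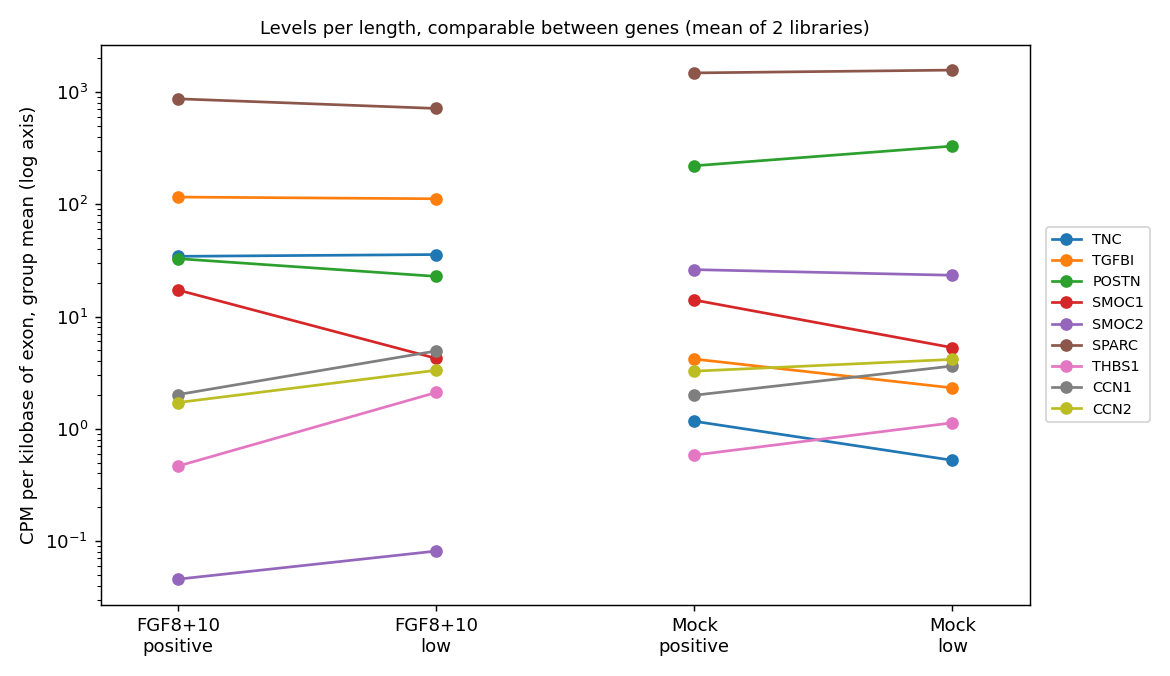
Group mean of each gene in CPM per kilobase of exon (log axis) in the 4 groups, with lines joining the sorted populations of 1 treatment. SPARC is at the top in all groups, TGFBI is second under FGF8+10 and POSTN second under Mock.

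The sorted populations were compared next, in cells of the same treatment. SMOC1 was the member with the clearest excess in Pdgfra-positive cells, and THBS1, CCN1 and CCN2 were higher in Pdgfra-low cells under both treatments. TNC, TGFBI, POSTN and SPARC are given for each treatment on its own. All p-values are Benjamini-Hochberg adjusted over the 22554 genes, from edgeR's quasi-likelihood test, and log2 fold changes are Pdgfra-positive over Pdgfra-low with their standard errors and 2 libraries per group.

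Under FGF8+10, 6 of the 10 genes passed the test, 3 higher in Pdgfra-positive cells and 3 lower, where 41.4% of all tested genes passed (19.6% higher and 21.7% lower). SMOC1 was higher by 2.02 ± 0.059 (4.06-fold, adjusted p = 2.11e-30). POSTN was higher by 0.52 ± 0.023 (adjusted p = 2.74e-23) and SPARC by 0.28 ± 0.015 (adjusted p = 9.70e-21). In the other direction THBS1 was 4.52-fold lower in Pdgfra-positive cells (log2 fold change -2.18 ± 0.12, adjusted p = 1.34e-20), CCN1 2.45-fold lower (-1.29 ± 0.10, adjusted p = 5.58e-15) and CCN2 1.94-fold lower (-0.95 ± 0.14, adjusted p = 1.58e-07).

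TNC, TGFBI and SMOC2 did not pass the test between the populations under FGF8+10. TNC had a log2 fold change of -0.052 ± 0.031 (95% interval -0.11 to 0.0094, adjusted p = 0.180) and TGFBI of 0.050 ± 0.022 (0.0068 to 0.094, adjusted p = 0.0579). SMOC2, at 8 to 24 counts per library, had -0.80 ± 0.39 (adjusted p = 0.0966), with overlapping groups. This last value depends on single libraries: it was -1.44 (adjusted p = 0.0212) without FGF8+10 Pdgfra-positive replicate 1 and -1.28 (adjusted p = 0.0116) without FGF8+10 Pdgfra-low replicate 2. TGFBI passed under 4 alternatives: with counts taken as read pairs (adjusted p = 0.0315), with the replicate number as a block (0.0393), and without Mock Pdgfra-positive replicate 1 (0.0422) or replicate 2 (0.0481).

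Under Mock, 9 of the 10 genes passed, 4 higher in Pdgfra-positive cells and 5 lower, where 25.8% of all tested genes passed (12.4% higher and 13.4% lower). TNC was 2.23-fold higher in Pdgfra-positive cells (log2 fold change 1.16 ± 0.073, adjusted p = 1.33e-17), TGFBI 1.81-fold (0.85 ± 0.037, adjusted p = 1.68e-23) and SMOC1 2.65-fold (1.41 ± 0.058, adjusted p = 2.92e-24). SMOC2 was higher by 0.17 ± 0.052 (adjusted p = 0.0131), a call that was lost without either Mock Pdgfra-positive library (adjusted p = 0.0789 and 0.0638) or without Mock Pdgfra-low replicate 1 (adjusted p = 0.290).

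POSTN was lower in Pdgfra-positive cells under Mock by a log2 fold change of -0.58 ± 0.021 (adjusted p = 1.87e-26) and SPARC by -0.084 ± 0.015 (adjusted p = 1.60e-05), both the reverse of their direction under FGF8+10. THBS1 (-0.96 ± 0.12, adjusted p = 1.35e-08) and CCN1 (-0.87 ± 0.11, adjusted p = 5.58e-09) were lower as they were under FGF8+10. CCN2 was lower by -0.35 ± 0.13 (adjusted p = 0.0486), and this call did not hold with DESeq2 (adjusted p = 0.0779), with the replicate number as a block (adjusted p = 0.0576) or without 3 single libraries, the least without Mock Pdgfra-low replicate 2 (log2 fold change -0.11, adjusted p = 0.721). The remaining gene, SPARCL1, passed under neither treatment (adjusted p = 0.683 and 0.490). Whether a population difference itself changed with treatment was not tested.

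**Figure D4:**
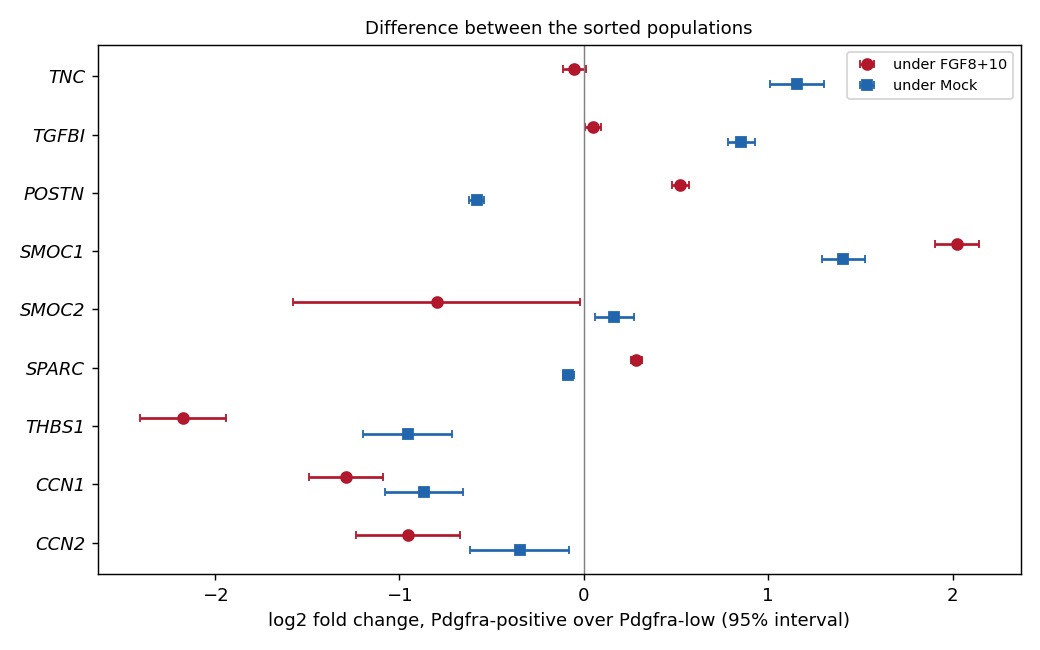
Log2 fold change of Pdgfra-positive over Pdgfra-low cells with 95% intervals for 9 genes (SPARCL1 is left out); circles are FGF8+10 and squares Mock. SMOC1 lies right of 0 and THBS1, CCN1 and CCN2 left of 0 under both treatments, while POSTN and SPARC lie on opposite sides.

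Markers of other cell types moved with the sort. Among all tested genes, 19.6% were higher and 21.7% lower in Pdgfra-positive cells under FGF8+10, and 12.4% and 13.4% under Mock. Under FGF8+10, 7 of 8 endothelial markers were lower in Pdgfra-positive than in Pdgfra-low cells. Among them CDH5 had group means of 1.39 and 19.8 CPM and PECAM1 of 2.60 and 18.5 CPM, and the list summed to 2129 to 2139 CPM in Pdgfra-positive and 2573 to 2579 CPM in Pdgfra-low libraries, most of it KDR. In Mock cells 3 of the 8 were higher in Pdgfra-positive cells, EMCN (log2 fold change 1.75) and ERG (1.32) among them, and 1 was lower, KDR (-0.063). The list summed there to 1329 to 1343 CPM in Pdgfra-positive and 1362 to 1370 CPM in Pdgfra-low libraries, with CDH5 and PECAM1 at 0.676 to 1.40 CPM in both populations. Of 6 mesothelial markers, 4 were lower in Pdgfra-positive cells under each treatment, and MSLN was higher there under FGF8+10, on 11 counts against 0. The list had sums of 389 to 390 CPM against 1127 to 1143 CPM under FGF8+10 and of 344 to 346 CPM against 737 to 739 CPM under Mock. The simple epithelial keratins KRT8 and KRT18 made up most of these sums, and the defining mesothelial genes WT1 and MSLN stayed under 0.4 CPM in every group. UPK3B, another defining mesothelial gene, had a group mean of 14.02 CPM in Mock Pdgfra-low cells and of 0.184 to 0.665 CPM in the other groups (log2 fold change -5.25 between the populations under Mock, adjusted p = 2.46e-22). LRRN4 had 144 and 167 CPM in Pdgfra-positive and Pdgfra-low cells under FGF8+10 and 83.1 and 122 CPM under Mock. The part of these cell types in the member values was not tested. Blood and pluripotency markers were low (at most 1.46 CPM summed in a library). The pluripotency gene SOX2 had 79 and 160 counts in the Mock Pdgfra-positive and Pdgfra-low groups and 4 in each FGF8+10 group. It passed the test as lower with FGF8+10 in both populations.

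For each gene, the genes of at least 10 CPM whose pattern over the 8 libraries was most like it were found by the root mean square difference of log2 CPM, each gene centred on its own mean. Of 10041 candidates, TGFBI was the nearest to TNC and TNC the nearest to TGFBI, at a difference of 0.168. SERTM2 followed for both (0.266 and 0.319), then TM4SF1 for TNC and ANO1 for TGFBI. POSTN was most like SLC40A1, the iron exporter gene (0.154). SMOC2 was most like CNTN5 (0.460) and NPY, which encodes neuropeptide Y (0.467), and SPARC most like SLIT3 (0.0416), a secreted guidance factor gene. SMOC1 was most like PTCHD1 (0.301). THBS1 was most like the keratin genes KRT8 (0.180) and KRT18 (0.213), followed by CD44, the hyaluronan receptor gene (0.215). CCN1 was most like TUBB2A (0.130) and CCN2 most like TMEM37 (0.105). KRT8, KRT18 and TUBB2A have near-identical copies elsewhere in the genome, so their counts are uncertain. With 8 libraries in 4 groups these values mainly restate the order of 4 group means. They also contain the FGF8+10 against Mock difference that was used to pick genes, so the nearness of TNC and TGFBI is a description.

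Other genes of the same kind were compared from a list of 20, of which 16 passed the filter. With FGF8+10, 5 rose and 8 fell in Pdgfra-positive cells (median log2 fold change -1.21), and 4 rose and 9 fell in Pdgfra-low cells (median -0.58). Over all tested genes 5811 rose and 5658 fell in Pdgfra-positive cells (25.8% and 25.1%, median -0.011) and 6300 rose and 6256 fell in Pdgfra-low cells (27.9% and 27.7%, median -0.015). With scaling by library totals these splits were 8164 to 3991 and 8113 to 4672. The f-spondin gene SPON1 fell from 320 to 42.3 CPM (group means, log2 fold change -2.92 ± 0.033) in Pdgfra-positive and from 296 to 35.0 CPM (-3.08 ± 0.034) in Pdgfra-low cells. SPON2 fell by a log2 fold change of -4.32 ± 0.071 and -3.67 ± 0.068, and SPOCK1, a testican proteoglycan gene of the SPARC family, by -1.93 ± 0.046 and -3.01 ± 0.053.

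Among those that rose was CCN4, a WNT-induced CCN gene also known as WISP1, by 0.92 ± 0.071 in Pdgfra-positive and 2.37 ± 0.062 in Pdgfra-low cells, reaching group means of 20.6 and 83.6 CPM. EDIL3, an integrin ligand gene, rose by 1.07 ± 0.027 and 0.96 ± 0.026, and FSTL1, a secreted SPARC-family protein gene and the most abundant of the list in CPM, by 0.53 ± 0.022 and 0.67 ± 0.022. COMP, the cartilage thrombospondin gene, had 2 counts in the FGF8+10 Pdgfra-positive and 0 in the FGF8+10 Pdgfra-low libraries against group means of 0.324 and 1.14 CPM under Mock, so no fold is given. TNN, another tenascin gene, rose (1.33 ± 0.44 and 1.83 ± 0.46) from group means under 0.5 CPM. SPOCK3 fell in Pdgfra-positive cells (-3.15 ± 0.46) from 1.07 to 0.118 CPM. Its group means in Pdgfra-low cells were 1.82 CPM under Mock and 0.234 CPM under FGF8+10. CCN4 was also lower in Pdgfra-positive than in Pdgfra-low cells under both treatments (log2 fold changes -2.02 ± 0.060 and -0.57 ± 0.074), the direction of CCN1 and CCN2. Of the 16, 4 were higher and 4 lower in Pdgfra-positive cells under FGF8+10 and 3 higher and 4 lower under Mock (medians 0.038 and -0.061, against 0.011 and 0.016 over all tested genes). The shares over all tested genes were 19.6% higher and 21.7% lower under FGF8+10, and 12.4% and 13.4% under Mock.

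**Figure D5:**
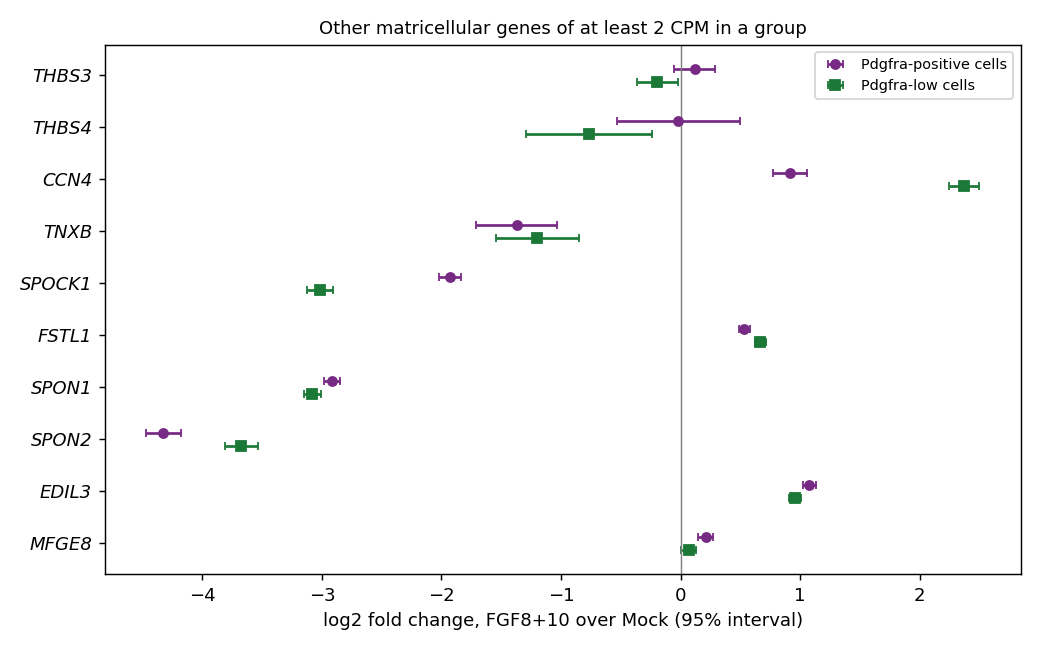
Log2 fold change of FGF8+10 over Mock with 95% intervals for the 10 listed matricellular genes of at least 2 CPM in a group; circles are Pdgfra-positive and squares Pdgfra-low cells. SPON1, SPON2, SPOCK1 and TNXB lie left of 0, and CCN4, EDIL3 and FSTL1 right of it.

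Of 19 genes for receptors of these proteins, all tested, 10 rose and 6 fell with FGF8+10 in Pdgfra-positive cells and 11 rose and 6 fell in Pdgfra-low cells (median log2 fold changes 0.089 and 0.69, where 25.8% and 25.1% of all tested genes rose and fell in the first and 27.9% and 27.7% in the second). ITGA8, the integrin alpha-8 chain gene whose dimer binds tenascin-C and other ligands with an RGD motif, rose from 42.7 to 396 CPM (3.21 ± 0.032) in Pdgfra-positive and from 21.5 to 287 CPM (3.74 ± 0.034) in Pdgfra-low cells. ITGAV, the alpha chain of the dimers that bind periostin, TGFBI and many others, rose by 1.35 ± 0.023 and 1.91 ± 0.023, and ITGA9, another tenascin-C receptor chain, by 0.74 ± 0.11 and 1.00 ± 0.11. CD47, the thrombospondin-1 receptor gene, rose by 1.58 ± 0.048 and 1.97 ± 0.049. ITGA2 rose by 3.05 ± 0.26 and 4.06 ± 0.22, from group means of 0.549 and 0.798 CPM under Mock. The syndecan gene SDC4 fell (-1.52 ± 0.033 and -1.28 ± 0.032), as did ITGA6, an alpha chain of laminin receptors (-2.09 ± 0.056 and -4.84 ± 0.045). PTPRZ1, another receptor gene of the list, fell too (-2.18 ± 0.14 in Pdgfra-positive and -3.23 ± 0.16 in Pdgfra-low cells). Between the populations, 4 receptor genes were higher and 10 lower in Pdgfra-positive cells under FGF8+10, and 4 higher and 8 lower under Mock, where the shares over all tested genes were 19.6% and 21.7% and then 12.4% and 13.4%. ITGA8 was higher in Pdgfra-positive cells under both treatments (0.47 ± 0.027 and 0.99 ± 0.039), and ANXA2, which encodes a tenascin-C binding annexin, lower (-1.68 ± 0.026 and -1.46 ± 0.027). STAB1 was lower there too (-5.13 ± 0.31 under FGF8+10 and -1.53 ± 0.34 under Mock), with group means of at most 6.79 CPM.

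CCN1 and CCN2 are textbook targets of the mechanosensitive coactivator YAP and its TEAD partners, so 20 other targets were read beside them. In Pdgfra-positive against Pdgfra-low cells 8 were higher and 11 lower under FGF8+10 and 5 higher and 9 lower under Mock (median log2 fold changes -0.14 and -0.17). Over all tested genes 19.6% were higher and 21.7% lower under FGF8+10, and 12.4% and 13.4% under Mock. AMOTL2, a YAP-binding angiomotin gene, had the direction of the CCN genes under both treatments (-0.79 ± 0.058 and -1.20 ± 0.057), whereas IGFBP3 had the opposite one (1.08 ± 0.013 and 0.31 ± 0.013). ANKRD1 and NT5E were lower in Pdgfra-positive cells under FGF8+10 (-3.39 ± 0.52 and -1.44 ± 0.16), with group means of at most 1.65 and 10.5 CPM. With FGF8+10, 11 rose and 8 fell in Pdgfra-positive and 12 rose and 8 fell in Pdgfra-low cells, against 25.8% and 25.1% and then 27.9% and 27.7% of all tested genes. CCDC80, itself a matrix protein gene, rose by 1.96 ± 0.026 and 2.42 ± 0.027, and the tissue factor gene F3 fell (-4.15 ± 0.058 and -3.93 ± 0.058).

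TGFBI and POSTN are both named for or known from TGF-beta treated cells. Of 14 TGF-beta response genes, 4 rose and 6 fell with FGF8+10 in Pdgfra-positive and 6 rose and 5 fell in Pdgfra-low cells, with medians of -0.070 and 0.031. The shares over all tested genes were 25.8% up and 25.1% down in the first population and 27.9% up and 27.7% down in the second. COL1A1, the type I collagen gene, fell (-2.00 ± 0.021 and -2.43 ± 0.021) and so did SMAD7, the feedback inhibitor gene (-0.87 ± 0.041 and -1.07 ± 0.040), while LTBP2 rose by 1.92 ± 0.16 and 1.72 ± 0.15. Between the populations 5 were higher and 4 lower in Pdgfra-positive cells under FGF8+10 (background 19.6% and 21.7%) and 4 higher and 5 lower under Mock (12.4% and 13.4%).

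CCN1 is also known as an immediate early gene, a class that responds within minutes to growth factors and to tissue dissociation. Of 14 immediate early genes, 4 were higher and 7 lower in Pdgfra-positive than in Pdgfra-low cells under FGF8+10, and 6 higher and 2 lower under Mock, beside 19.6% and 21.7% and then 12.4% and 13.4% of all tested genes. FOS was higher in Pdgfra-positive cells under both treatments (0.95 ± 0.030 and 1.21 ± 0.030), and EGR1 too (0.74 ± 0.056 and 1.54 ± 0.055), the reverse of the CCN genes and THBS1. ATF3 was lower in Pdgfra-positive cells under both (-1.33 ± 0.079 and -0.71 ± 0.068). With FGF8+10, 2 rose and 10 fell in Pdgfra-positive (25.8% and 25.1% of all tested genes did) and 4 rose and 8 fell in Pdgfra-low cells (27.9% and 27.7%). The part of dissociation in the member values was not tested.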

How the data were processed

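RNA sequencing gave 8 libraries. Raw counts, 1 table with a row per gene name, were deposited by the authors. Per the submitters' processing notes the tools were FastQC 0.11.8 (read quality) and HISAT2 2.1.0 (alignment, GRCh38), and per the file headers featureCounts 2.0.3 counted exon reads on GENCODE 42, unstranded, with both mates of a pair counted. Read trimming: not given in the sources used here. All sample columns were used (0 left over). From the counts, edgeR 4.0.16 (R 4.3.3, limma 3.58.1) gave TMM scaling, the filterByExpr filter and 1 robust quasi-likelihood model of 1 mean per group across the 8 libraries (4 residual degrees of freedom), with two-sided contrasts and Benjamini-Hochberg adjustment at 0.05. A standard error is the log2 fold change divided by the square root of F. The genes and all lists were chosen with earlier results of these data known. From each list, up to 3 called genes per direction and contrast with the largest fold change were to be named, and for each member the 3 most similar genes. Not every gene that this rule names is given in the text. SPON1, SPOCK1, FSTL1, ITGAV, ITGA9, CD47, AMOTL2 and the defining cell type markers were also given in contrasts where this rule does not name them, chosen after their values were seen. The model was tested on simulated counts. Alternatives were DESeq2 1.42.0, other scalings, no filter, read pairs, a replicate block and leaving out each library. The figures were drawn with matplotlib 3.10.9.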

Additional observations from a re-analysis of the deposited data

Results flagged for a closer look

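In each of the following cases the libraries of the groups compared did not overlap in either comparison, and the direction differed between the comparisons. The difference between the comparisons was not tested. How many of all tested genes met the same rule was not counted.

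Between the sorted populations, TNC was lower in Pdgfra-positive than in Pdgfra-low cells in all libraries under FGF8+10 (log2 fold change -0.052, which did not pass the test) and higher in all libraries under Mock (1.16). POSTN was higher in Pdgfra-positive cells under FGF8+10 (0.52) and lower under Mock (-0.58). SPARC was higher under FGF8+10 (0.28) and lower under Mock (-0.084).

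Between FGF8+10 and Mock, SMOC1 was higher with FGF8+10 in Pdgfra-positive cells (log2 fold change 0.30) and lower in Pdgfra-low cells (-0.32). THBS1 was lower with FGF8+10 in Pdgfra-positive cells (-0.32) and higher in Pdgfra-low cells (0.90).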

How the results depend on the processing

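All 84 recomputed counts of called genes and members stayed within 1.5 times the reported ones. Leaving out each library in turn gave 7866 to 9465 called genes and 6 to 7 called members between the populations under FGF8+10, 4400 to 5868 genes and 7 to 9 members under Mock, and 10062 to 11617 and 11233 to 12800 genes with FGF8+10 in the Pdgfra-positive and the Pdgfra-low population. Of the member fold changes, 501 recomputed values kept their direction and their side of the threshold or, where there was no test, moved by less than 1 SD. That SD is the square root of the summed replicate variances of log2 CPM in both groups. Another 37 untested values moved further, 6 passed the test newly, 8 no longer passed and 4 changed sign. The last were SPARCL1 between the populations under FGF8+10, which never passed, 1.99 without FGF8+10 Pdgfra-low replicate 2 (range -1.53 to 1.99), CCN1 with FGF8+10 in Pdgfra-positive cells, -0.037 without Mock Pdgfra-positive replicate 2 (range over left-out libraries -0.037 to 0.087), and SPARCL1 with FGF8+10 in Pdgfra-low cells, -1.69 without FGF8+10 Pdgfra-low replicate 2 and -0.0070 without Mock Pdgfra-low replicate 2 (range -1.69 to 5.93); the cause was not tested. The newly passing values were those of TGFBI and SMOC2 between the populations under FGF8+10, and those lost were of CCN2 and SMOC2 under Mock.

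Replicate numbers did not pair the libraries: same-numbered libraries of different groups correlated at -0.0095 to 0.0345 over 10042 genes of at least 10 CPM. With the replicate number as a block, 9232 genes and 7 members were called between the populations under FGF8+10 (TGFBI was added, adjusted p = 0.0393 by edgeR), 5803 genes and 8 members under Mock (CCN2 was lost), and 11366 and 12451 genes with FGF8+10 in the Pdgfra-positive and the Pdgfra-low population. Depth limits SPARCL1 in all groups and SMOC2 under FGF8+10, where a library held at most 24 counts.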
